A study of Arabidopsis thaliana with 28 samples.

Results

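Closed flower buds of the Arabidopsis thaliana double mutant ibm1 jmj27 were compared with closed buds of Col, the Columbia wild-type control, over all genes of the deposited count table. The comparison uses 4 libraries of polyadenylated RNA, 2 from ibm1 jmj27 and 2 from Col, chosen by their labels from the 8 RNA libraries among the 28 samples of the series. The other 4 RNA libraries came from closed buds of the single mutant ibm1 and of pds5, 2 each, and are used to show where the double mutant differs from them. ChIP libraries of the series, 20 in number, are not analysed here. The title of the series places the study in male meiosis and in transcriptional activation through removal of H3K9 methylation. The labels give the mutants by gene name, with no allele, plant age or harvest time, and they mention both a long-day and a short-day growth chamber without tying a library to either. Whether a replicate is another plant or another preparation is also not stated, so the p-values cover only the spread among these libraries, which may be technical.

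Methylation of lysine 9 on histone H3 marks silent chromatin in plants and reinforces, and is reinforced by, methylation of cytosines. IBM1 and JMJ27 are JmjC-domain demethylases of the KDM3 group that remove this mark. IBM1 is known for keeping it, and cytosine methylation outside CG sites, off the bodies of transcribed genes. Inside a closed bud the anther holds meiocytes, which pass through meiosis, and the tapetum, a nursing layer that supplies the enzymes that free the microspores, the precursors of the outer pollen wall (exine) and later the pollen coat. Microspores then mature into pollen, which stores transcripts for growth of the pollen tube.

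Total counts were 19490663 and 23532908 in the Col libraries and 25581537 and 21963173 in the ibm1 jmj27 libraries, within a range of 19490663 to 26038662 over the 8 libraries. Libraries of 1 genotype differed beyond sampling noise in every case, with a chi-square per degree of freedom of 2.92 in Col, 2.32 in ibm1, 5.70 in pds5 and 14.8 in ibm1 jmj27. Among genes with a mean log2 CPM of at least 1, 117 of 18095 stood more than 1 log2 unit apart between the ibm1 jmj27 libraries, against 16 of 18154 between the Col libraries. The labelled tissue was checked with floral organ genes. AP1, AP3, PI, AG and SEP3 were all at 88.6 CPM or more in each of the 4 libraries. Of 4 root genes, EXPA7, EXPA18 and PRP3 were under the filter on low counts. The other, COBL9, fell from 17.0 and 17.4 CPM to 1.59 and 2.38. Of 4 seed storage genes, CRU3, SESA3 and OLEO1 were under the filter and CRA1 did not pass the test. Levels are in CPM, counts scaled by library size and composition, in the order replicate 1 and replicate 2. A gene rose or fell where the edgeR quasi-likelihood test over all 21548 genes tested gave a Benjamini-Hochberg adjusted p under 0.05. Spread was estimated jointly over the 4 genotypes, so standard errors and p-values may understate the wider spread of ibm1 jmj27. Col and ibm1 jmj27 fitted alone, with fewer residual degrees of freedom, gave 9097 genes passing, against 10881 in the joint fit. Against ibm1, 22.7% of these genes were higher in ibm1 jmj27 and 22.8% lower, and against pds5 19.1% and 20.7%.

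Both targeted genes were lower in the double mutant than in Col. JMJ27 (AT4G00990) stood at 64.0 and 64.7 CPM in Col and 8.35 and 8.40 in ibm1 jmj27, a log2 fold change of -2.94 ± 0.0868 SE, adjusted p = 8.56e-12. Its mean was 73.4 CPM in ibm1 and 60.8 in pds5. IBM1 (AT3G07610) stood at 52.5 and 55.5 CPM in Col and 18.8 and 21.4 in ibm1 jmj27, a change of -1.43 ± 0.0833 SE, adjusted p = 7.55e-09. The ibm1 single mutant had a mean of 20.6 CPM, and the 2 mutants were not separated by the test (log2 difference -0.04, adjusted p = 0.757). Counts over a whole gene do not show which part of a transcript remained.

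The other members of the KDM3 group were measured beside them. JMJ29 fell from 48.7 and 51.2 CPM to 23.1 and 28.2 (-0.97 ± 0.0971 SE, adjusted p = 2.07e-06), and it was also lower than in ibm1, where its mean was 61.0 CPM. JMJ26 fell by 0.43 on the log2 scale, and JMJ24 did not pass (log2 fold change 0.08, adjusted p = 0.365). JMJ28 was at -0.29 (adjusted p = 0.00948), a call that ended without Col replicate 2 (adjusted p = 0.0936) and without ibm1 jmj27 replicate 1 (adjusted p = 0.0523). In all, 5 of the 6 members fell and 0 rose, beside 50.5% of all genes tested that passed, 26.7% higher and 23.8% lower. The 5 include IBM1 and JMJ27, the mutated genes themselves, so the count is not a result about the rest of the group. Outside the mutated genes, JMJ29, JMJ26 and JMJ28 fell and JMJ24 did not pass. Of 15 other histone demethylase genes 7 fell and 0 rose, with a median log2 fold change of -0.26. The largest fall among them was in JMJ30, a demethylase gene under clock control, from 91.6 and 93.1 CPM to 4.54 and 2.71 (-4.64 ± 0.171 SE, adjusted p = 1.48e-09).

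Over all genes, 10881 of 21548 passed, 5745 higher and 5136 lower in ibm1 jmj27, and the median log2 fold change of all genes was 0.03. The split turned with the scaling and test. It was 5356 higher and 5443 lower with DESeq2 size factors, 4323 and 4629 with the DESeq2 test, and 4388 and 4709 with the 4 libraries fitted alone. With a log2 fold change of at least 1, the counts were near each other, at 1709 higher (7.93% of genes tested) and 1776 lower (8.24%). Large changes were mostly falls. At a log2 fold change of 4 or more, 102 genes were higher (0.473%) and 381 lower (1.77%). Of these 381, 244 were among the 4310 genes with the lowest mean level and 14 among the 4310 with the highest. The plot of log2 fold change against level shows these genes with pollen, clock and photosynthesis genes marked.

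**Figure D1:**
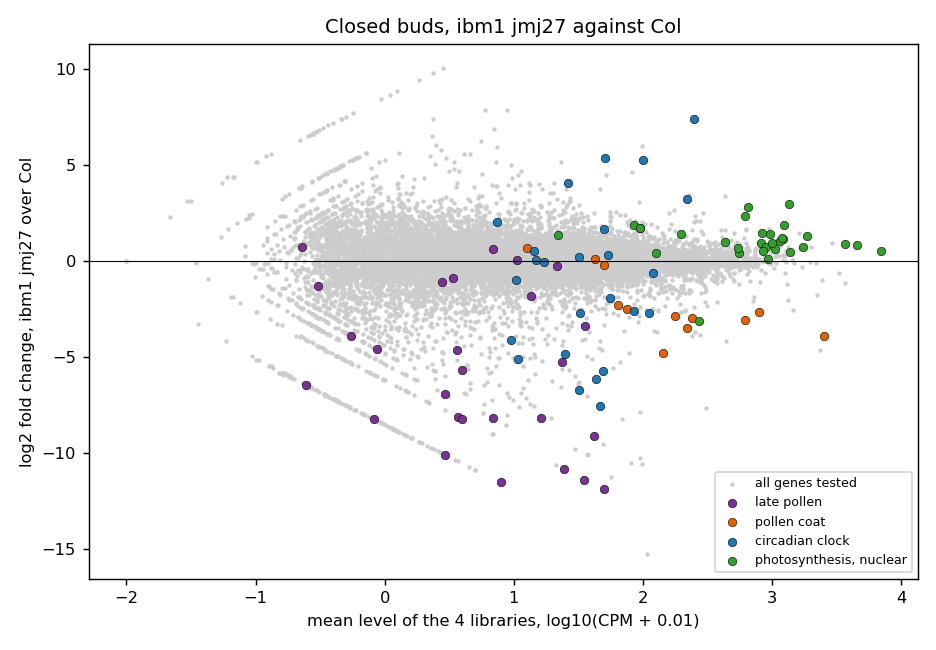
Log2 fold change between ibm1 jmj27 and Col for each gene tested (y axis) against its mean level in CPM (x axis, log scale), with 4 gene lists in colour and all other genes in grey. Many late pollen and pollen coat genes lie toward the lower edge, down to -11.87 for PGA4. Others lie near or above 0, up to 0.72 for late pollen and 0.68 for pollen coat. LHY of the clock list lies at 7.39, and nuclear photosynthesis genes sit among the most abundant genes with a median of 0.96.

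Transcripts of maturing pollen were among the largest falls. The pectin enzyme genes PGA4 and VGDH2, the proton pump gene HA6 and the signalling peptide gene RALFL8 stood at 15.4 to 104 CPM in the Col libraries and at 0 to 0.0467 CPM in those of ibm1 jmj27. Of 32 genes of the late pollen list 27 passed the filter. Of these 23 fell, 1 rose and 3 did not pass, beside 23.8% lower and 26.7% higher over all genes. Their median log2 fold change was -5.65, or -4.66 with genes at 0 set to the bound that a floor of 3 counts allows, beside 0.03 over all genes. Members under the filter were ANX2, CPK17, CPK34, STP11 and PRK6, each at 0.582 CPM or lower in all 4 libraries. The filter ran over all 8 RNA libraries, so a member near 0 in ibm1 jmj27 was tested only where another genotype held enough counts. That favours falls among the members tested, and these counts describe only those members. In bulk buds, fewer cells of a type and less RNA per cell cannot be told apart.

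All 5 pectin enzymes of the list fell. PGA4, a polygalacturonase, stood at 104 and 95.6 CPM in Col, while the ibm1 jmj27 libraries together held 1 count, a ratio of 4688 with an exact 95% interval of 841 to 185218 that covers counting error only. VGDH2, a pectin methylesterase of the VANGUARD1 group, stood at 48.8 and 48.9 CPM in Col, again with 1 count in ibm1 jmj27 (ratio 2304, interval 413 to 91028). Both Col libraries were high for these genes, and both ibm1 jmj27 libraries were at or next to 0. VGD1 (VANGUARD1), which is needed for pollen tube growth in the style, went from 85.1 and 82.6 CPM to 0.194 and 0.0933. Its counts were 1667 and 1938 in Col and 5 and 2 in ibm1 jmj27, and its log2 fold change was -9.09 ± 0.217 SE, adjusted p = 1.85e-12. PPME1, another pectin methylesterase, fell by 8.17. VGDH1, a near copy of VGD1, stood at about 1 CPM in Col, its reads may be shared with VGD1, and its call was lost on leaving out any of the 4 libraries. The single mutant had intermediate levels, with means of 32.2 CPM for PGA4 and 27.5 for VGD1, whereas pds5 had 117 and 92.6. Against ibm1 the log2 difference of the double mutant was -10.24 for PGA4 and -7.48 for VGD1.

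All 6 actin and actin-regulator genes of the list fell. ADF7, a pollen actin-depolymerizing factor, had 130 and 118 counts in Col and 0 in both ibm1 jmj27 libraries, at least 90.6-fold lower against a floor of 3 counts over the group. The profilin genes PRF4 and PRF5 stood at 13.8 and 13.4 and 8.17 and 7.63 CPM in Col and had 2 and 1 counts in ibm1 jmj27. The reproductive actin gene ACT4 fell from 8.32 and 5.54 CPM to 0.155 and 0.420. ACT12, the other reproductive actin of the list, kept more of its level, with 21.5 and 21.0 CPM in Col and 5.47 and 6.77 in ibm1 jmj27 (-1.80 ± 0.145 SE, adjusted p = 2.23e-07). No actin gene of the list overlapped between the genotypes, against 73.3% of all genes tested that did not overlap.

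Transporters of the plasma membrane and vacuole fell in all 8 cases, though by very different amounts. HA6, a pollen proton pump of the AHA family, stood at 70.5 and 70.2 CPM in Col, with 1 count in ibm1 jmj27 (ratio 3320, interval 595 to 131173). HA9 fell from 63.5 and 65.6 CPM to 5.47 and 6.91, and HA8 was at -0.27 on the log2 scale (adjusted p = 0.0403). The HA8 call ended without Col replicate 1 (adjusted p = 0.286), without either ibm1 jmj27 library and under the DESeq2 test. The 3 proton pumps thus covered log2 fold changes from -11.37 to -0.27. STP9, a hexose transporter of pollen, fell from 44.6 and 46.5 CPM to 1.36 and 0.980 (-5.26 ± 0.140 SE, adjusted p = 2.73e-12), and the vacuolar aquaporin gene TIP1;3 from 6.23 and 5.33 to 0.0776 and 0. The calcium pump gene ACA9 had 147 and 188 counts in Col and 1 and 6 in ibm1 jmj27.

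Signalling genes of the pollen tube were mixed. RALFL8, which encodes a rapid alkalinization peptide, had 317 and 361 counts in Col and 0 in both ibm1 jmj27 libraries, at least 248-fold lower. RALFL19 had 10 counts in each Col library and 0 in ibm1 jmj27, at least 7.31-fold lower. The receptor kinase gene BUPS1 fell by 1.08 on the log2 scale. ANX1, which encodes another receptor kinase of the same pathway, stood at 10.7 and 10.1 CPM in Col and 10.4 and 11.3 in ibm1 jmj27 and did not pass (adjusted p = 0.728). LLG2, a co-receptor gene, was the 1 member that rose (log2 fold change 0.61, adjusted p = 0.00715), and its call ended without ibm1 jmj27 replicate 1 and without Col replicate 1, while 2 members rose without ibm1 jmj27 replicate 2. Against ibm1 the same list had 19 members lower and 1 higher in the double mutant, beside 22.8% lower and 22.7% higher, 45.5% in all, over all genes. Against pds5 it had 23 lower and 1 higher, beside 20.7% and 19.1%, 39.9% in all. In both, the higher member was HA8, whose mean was 9.32 CPM in ibm1 and 10.1 in pds5.

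**Figure D2:**
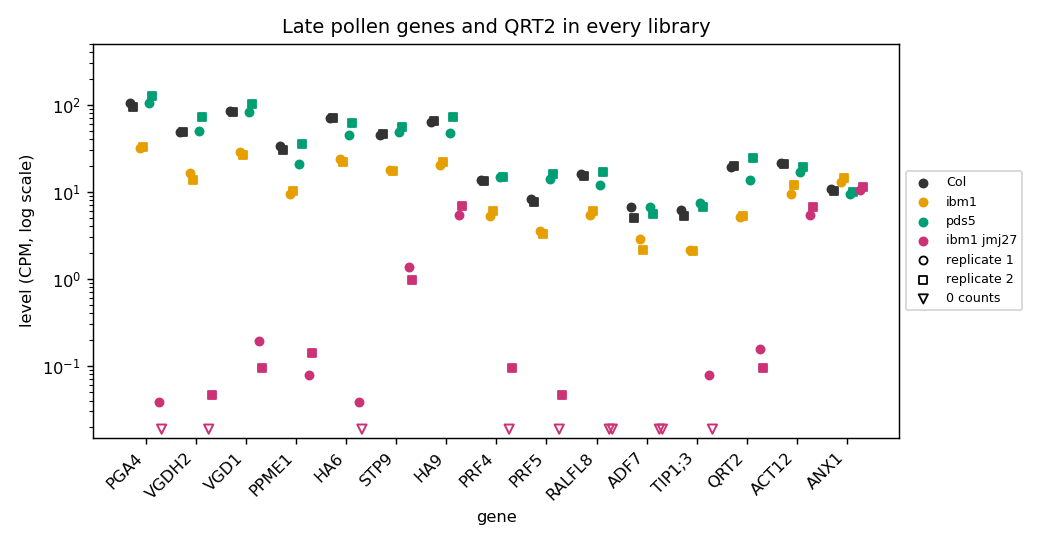
Level in CPM (log axis) of 15 genes, late pollen genes and QRT2, in the 8 RNA libraries, 1 column per gene. Colours mark genotypes and open triangles at the lower edge mark libraries with 0 counts. For most genes Col and pds5 lie together at the top, ibm1 lies below them, and the ibm1 jmj27 libraries lie lowest, at 0 counts in both for RALFL8 and ADF7, whereas ANX1 shows no such order.

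Falls of this size also occurred in genes that were not on the late pollen list. Whether those genes are expressed in pollen was not tested. Among genes that had a symbol and reached 1 in mean log2 CPM, the 12 largest falls were PGA4, HA6, VGDH2, PAB3, VGD1, sks13, PPME1, XTH3, FKF1, GDI, UNE15 and QRT2. PAB3, a poly(A)-binding protein gene, stood at 76.5 and 73.1 CPM in Col and had 0 and 3 counts in ibm1 jmj27 (ratio 1175, interval 402 to 5699). The multicopper oxidase-like gene sks13 fell from 142 and 134 CPM to 0.543 and 0.373, and XTH3, a xyloglucan endotransglucosylase gene, from 563 and 667 CPM to 0.738 and 5.65. XTH3 was among the genes that differed most between the ibm1 jmj27 libraries, and both still lay far below Col. QRT2, a polygalacturonase gene named for its part in microspore separation, had 377 and 464 counts in Col and 4 and 2 in ibm1 jmj27. FKF1 belongs to the clock genes described further on.

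Some genes were without a single count in the double mutant. There were 97 genes with at least 20 counts in the Col libraries and 0 in both ibm1 jmj27 libraries, and 36 the other way. With at least 200 counts there were 11 and 2. The highest was AT3G07850, which has no symbol in the reference table, with 216 and 211 CPM in Col and 0 counts in ibm1 jmj27, at least 3360-fold lower. It stood at a mean of 61.9 CPM in ibm1 and 200.2 in pds5. The next in order, after RALFL8, were AT5G44300 and MSP2, each at least 156-fold lower, AT3G58240 at least 140-fold, AT4G13230 at least 114-fold, WRKY31 at least 110-fold, and ADF7. The reverse pair was AT2G08986, at least 80.3-fold higher in ibm1 jmj27, and AT3G43340, at least 69.6-fold higher.

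Regulators of pollen fell in part, beside 23.8% of all genes lower and 26.7% higher. Of 9 pollen transcription factor genes 8 were tested, and 4 fell, 1 rose and 3 did not pass, with a median of -0.91. AGL104, a MADS-box gene of maturing pollen, had 51 and 60 counts in Col and 0 and 1 in ibm1 jmj27 (ratio 122, interval 21.4 to 4850). WRKY34 fell from 4.90 and 4.39 CPM to 0.0388 and 0.140 (-5.68 ± 0.400 SE, adjusted p = 5.47e-08), while its relative WRKY2 did not pass at -0.01. The 1 member that rose, AGL65, lost its call without Col replicate 1 and without Col replicate 2. Male germline genes were near the limit of detection. Of 9, only 6 could be tested, and DUO1, the Myb regulator of the generative cell, had 18 and 21 counts in Col and 2 and 1 in ibm1 jmj27 (ratio 14.3, interval 4.53 to 72.1). MGH3, a histone H3 gene of the germline, had 17 and 22 counts in Col and 1 and 0 in ibm1 jmj27. GEX1 was the 1 member that rose, and its call ended without Col replicate 1 and without ibm1 jmj27 replicate 1.

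Most pollen coat genes fell. The coat is laid on the grain by the dying tapetum and carries oleosin-domain glycine-rich proteins (GRP) and extracellular lipases (EXL). Of its 12 genes 9 fell, 1 rose and 2 did not pass, beside 23.8% lower and 26.7% higher over all genes. Their median log2 fold change was -2.75. All 12 were higher in ibm1 jmj27 replicate 2 than in replicate 1, with a median difference of 0.37 on the log2 scale against 0.09 between the Col libraries, and the part of that difference in the result was not tested. GRP17 went from 4371 and 5007 CPM to 230.2 and 397 (-3.90 ± 0.256 SE, adjusted p = 1.69e-05), GRP16 from 266 and 281 to 8.81 and 11.2, and GRP14 from 401 and 402 to 31.7 and 39.8. All 6 GRP genes fell, by 2.48 to 4.78 on the log2 scale. For each of them both ibm1 jmj27 libraries lay below both Col libraries, and 73.3% of all genes tested did not overlap. The GRP genes are near copies in a row on chromosome 5, so their counts may share reads. Among the lipases EXL4 fell from 1023 and 1196 CPM to 86.2 and 175, EXL5 from 102 and 112 to 17.3 and 26.7 and EXL6 from 286 and 338 to 33.2 and 53.1. EXL2, in contrast, rose from 9.19 and 10.3 to 15.2 and 16.0, and EXL1 and EXL3 did not pass. Mean levels of GRP16 were 171 CPM in ibm1 and 239 in pds5. All 6 GRP genes were also lower in the double mutant than in ibm1 and than in pds5, beside 22.8% and 20.7% of all genes.

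Genes for callose and for separation of the tetrad, the group of microspores left by a meiosis, fell in 4 of 5 cases. Of all genes tested, 23.8% fell and 26.7% rose. CALS5, the callose synthase of the microspore wall, fell from 23.2 and 26.3 CPM to 10.2 and 11.6 (-1.19 ± 0.148 SE, adjusted p = 1.96e-05). QRT3, a polygalacturonase that opens the tetrad wall, fell from 159.7 and 168 CPM to 56.1 and 67.1 (-1.41 ± 0.0917 SE, adjusted p = 2.39e-08), and the pectin methylesterase gene QRT1 from 15.2 and 13.4 to 9.05 and 9.94. A6, related to callose-degrading enzymes of the tapetum, was at 544 and 649 CPM in Col and 275 and 423 in ibm1 jmj27 and did not pass (adjusted p = 0.0687). It did pass as fallen under the DESeq2 test (adjusted p = 0.0353) and with Col and ibm1 jmj27 fitted alone (adjusted p = 0.00847). The same held with a replicate block (adjusted p = 0.000324) and without robust estimation (adjusted p = 0.00599). The 2 genotypes did not overlap for any of the 5 genes, beside 73.3% of all genes tested. In pds5 the mean of QRT3 was 72.7 CPM, and the double mutant did not pass against it (log2 difference -0.24, adjusted p = 0.052).

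Exine genes were lower too, with a marked difference between the ibm1 jmj27 libraries. They encode the tapetal enzymes that make and export sporopollenin, the polymer of the exine, and phenolic compounds of the pollen surface. Of 18 genes 11 fell, 0 rose and 7 did not pass, beside 23.8% lower and 26.7% higher over all genes. The median was -0.46. Without Col replicate 2 or without ibm1 jmj27 replicate 1 the fallen members were 7, and without ibm1 jmj27 replicate 2 there was 1 risen member. Replicate 2 of ibm1 jmj27 had the higher level in 16 of the 18. The median difference was 0.68 on the log2 scale, against 0.16 between the Col libraries. The part of that difference in the result was not tested. Levels summed over the list also rose with replicate number in pds5, at 1779 and 2345 CPM, beside 1886 and 3112 in ibm1 jmj27. In ibm1 the sums were 2480 and 2428 CPM.

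Genes for hydroxycinnamoyl spermidines of the pollen surface were among those that fell. CYP98A9 stood at 202 and 248 CPM in Col and 23.4 and 50.9 in ibm1 jmj27 (-2.61 ± 0.381 SE, adjusted p = 0.00467), CYP98A8 at 321 and 369.6 and 91.8 and 148, and the acyltransferase gene SHT at 349.7 and 402 and 156 and 212. RPG1, a sugar transporter needed for the exine pattern, fell from 32.6 and 28.6 CPM to 5.28 and 8.35 (-2.18 ± 0.159 SE, adjusted p = 3.98e-07). Both ibm1 jmj27 libraries lay below both Col libraries for these 4 genes, beside 73.3% of all genes tested that did not overlap. The sporopollenin enzymes were less clear. ACOS5, a fatty acyl-CoA synthetase gene, stood at 279 and 306 CPM in Col and 171 and 376 in ibm1 jmj27, with 1 library below and 1 above the Col range, and did not pass (adjusted p = 0.878). PKSB, a polyketide synthase gene, showed the same arrangement at 253 and 280.3 and 137 and 292 CPM. Its relative PKSA fell, from 304 and 340.1 CPM to 77.3 and 123, a call that ended without ibm1 jmj27 replicate 1 (adjusted p = 0.0515). Only RPG1, CYP98A9 and CYP98A8 of these also passed as lower than in ibm1.

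**Figure D3:**
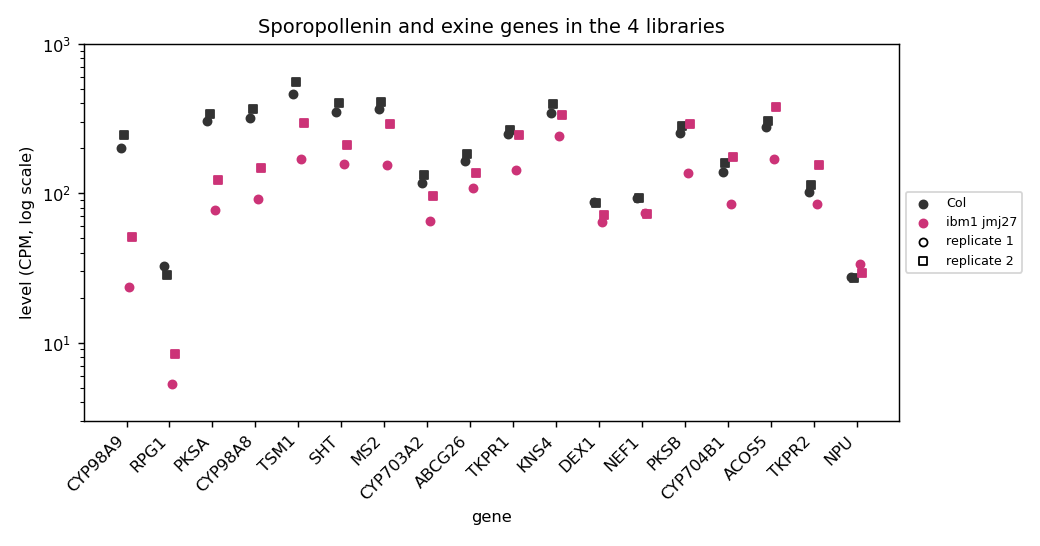
Level in CPM (log axis) of the 18 exine genes in the Col and ibm1 jmj27 libraries, with circles for replicate 1 and squares for replicate 2. The Col circles and squares lie close together for each gene, the ibm1 jmj27 square lies above its circle in 16 of 18 genes, and for CYP98A9 and RPG1 both ibm1 jmj27 points lie well below Col.

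Regulators of the tapetum fell by smaller amounts. Of 13 genes 7 fell, 1 rose and 5 did not pass, beside 23.8% lower and 26.7% higher over all genes. The median was -0.41. Replicate 2 of ibm1 jmj27 was again the higher in 11 of the 13, by a median of 0.18 against 0.07 in Col. Summed levels were 400 and 503 CPM in ibm1 jmj27, 292 and 330 in pds5 and 376 and 378 in ibm1. MS1, a late PHD-finger regulator, went from 28.2 and 27.7 CPM to 11.8 and 15.2 (-1.06 ± 0.137 SE, adjusted p = 2.68e-05), and MYB80 from 11.3 and 11.9 to 5.43 and 7.19. EMS1, the receptor kinase that specifies the tapetum, fell by 0.54 on the log2 scale, while TPD1, its peptide ligand, rose from 3.47 and 4.39 CPM to 6.33 and 7.56 (0.81 ± 0.183 SE, adjusted p = 0.00232). The early regulators SPL, DYT1 and TDF1 did not pass. AMS, a bHLH regulator between them and MS1, stood at 225 and 243 CPM in Col and 188 and 269 in ibm1 jmj27, whose libraries lay on both sides of Col. Against ibm1 2 members were lower, EMS1 and MYB33, and 5 higher, among them AMS, TDF1 and DYT1, beside 22.8% and 22.7% over all genes. Against pds5 there were 6 higher and 1 lower, beside 19.1% and 20.7%.

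Crossover genes and genes of the meiotic axis fell in many cases in the double mutant. Of 18 crossover genes, which include factors that limit crossovers, 10 fell, 1 rose and 7 did not pass, with a median log2 fold change of -0.58, beside 23.8% lower and 26.7% higher over all genes. SHOC1, a ZMM protein of the main crossover pathway, went from 4.34 and 4.90 CPM in Col to 0.815 and 0.793 in ibm1 jmj27 (-2.52 ± 0.250 SE, adjusted p = 1.91e-06), ZIP4 from 3.27 and 3.11 to 0.543 and 1.07 (-2.003 ± 0.347 SE, adjusted p = 0.000305), and PTD, the partner of SHOC1, from 7.51 and 7.76 to 3.61 and 3.97 (-1.01 ± 0.171 SE, adjusted p = 0.00025). The genotypes did not overlap for these 3 genes, as for 73.3% of all genes tested, and levels this low rest on few counts. MSH5, a MutS homologue that stabilizes crossover intermediates, fell by 0.87. HEI10, the RING-domain ZMM factor whose dosage is known to set crossover number, rose from 5.62 and 5.29 CPM to 11.6 and 9.56 (0.96 ± 0.150 SE, adjusted p = 0.000134). Genes outside this pathway also fell, among them the nuclease gene MUS81, from 21.2 and 21.7 CPM to 12.7 and 13.5, the helicase genes RECQ4A by 0.54 and RECQ4B by 0.62, and FANCD2 by 0.85.

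Axis, synapsis and strand invasion genes followed with 10 of 16 fallen, 0 risen and a median of -0.45. Without Col replicate 2 the fallen members were 6. ASY1, the HORMA-domain protein of the meiotic axis, fell from 4.65 and 4.99 CPM to 1.36 and 2.29 (-1.42 ± 0.272 SE, adjusted p = 0.000675), and ASY3, its axis partner, by 0.36. ZYP1A and ZYP1B, near-identical copies that encode the transverse filament of the synaptonemal complex and whose reads may be shared, fell by 0.99 and 1.66. BRCA2A and BRCA2B, which act in strand invasion, fell by 0.61 and 0.56. Of 12 genes for meiotic DNA breaks 3 fell, 0 rose and 9 did not pass, with a median of -0.31, a share of falls near the 23.8% over all genes. SPO11-1, the break-making enzyme, stood at 2.09 and 2.22 CPM in Col and 1.79 and 1.63 in ibm1 jmj27 and did not pass (adjusted p = 0.313). RAD50 fell from 79.8 and 81.7 CPM to 47.9 and 56.7, and its partners MRE11 and NBS1 did not pass. The meiotic gene at AT1G10710 (PHS1 of meiosis) fell from 4.39 and 3.37 CPM to 1.13 and 1.77. Of 12 genes for the meiotic divisions 2 rose, 3 fell and 7 did not pass, with a median of -0.01. OSD1, needed for entry into the second division, fell by 0.63, while PANS1, a protector of centromere cohesion, rose from 31.4 and 27.24 CPM to 52.3 and 47.6 (0.77 ± 0.106 SE, adjusted p = 4.44e-05).

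Cohesin genes fell in 12 of 18 cases and rose in 0, beside 23.8% lower and 26.7% higher over all genes. The amounts were small, with a median of -0.26. Without Col replicate 1 the fallen members were 7, and without Col replicate 2 they were 6. REC8 (SYN1), the meiotic kleisin, fell from 5.62 and 4.86 CPM to 2.29 and 1.40 (-1.48 ± 0.252 SE, adjusted p = 0.000261). The kleisin gene SYN3 fell by 0.72, and the loader gene SCC2 by 0.58. Of the PDS5 genes, PDS5B fell from 69.8 and 66.8 CPM to 39.8 and 48.2 (-0.64 ± 0.0901 SE, adjusted p = 5.28e-05) and PDS5E by 0.49. PDS5A stood at 236 and 249 CPM in Col and 215 and 249 in ibm1 jmj27 and did not pass (adjusted p = 0.544; it passed without ibm1 jmj27 replicate 2, adjusted p = 0.0207). The mean of PDS5A was 109 CPM in ibm1, and there the log2 difference of the double mutant was 1.09 (adjusted p = 2.44e-07), so the double mutant stood higher than the single one.

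Set against ibm1, the crossover list had 11 members lower and 0 higher in the double mutant, the axis list 8 lower and 0 higher, and the cohesin list 9 lower and 3 higher, beside 22.8% and 22.7% of all genes. SHOC1 had a mean of 3.91 CPM in ibm1, with a log2 difference of -2.27 (adjusted p = 9.89e-06). ASY1 had 2.16 CPM in ibm1 and did not pass between the mutants (adjusted p = 0.509). HEI10 was high in both, at 9.89 CPM in ibm1. These comparisons use the same ibm1 jmj27 libraries as the one against Col.

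**Figure D4:**
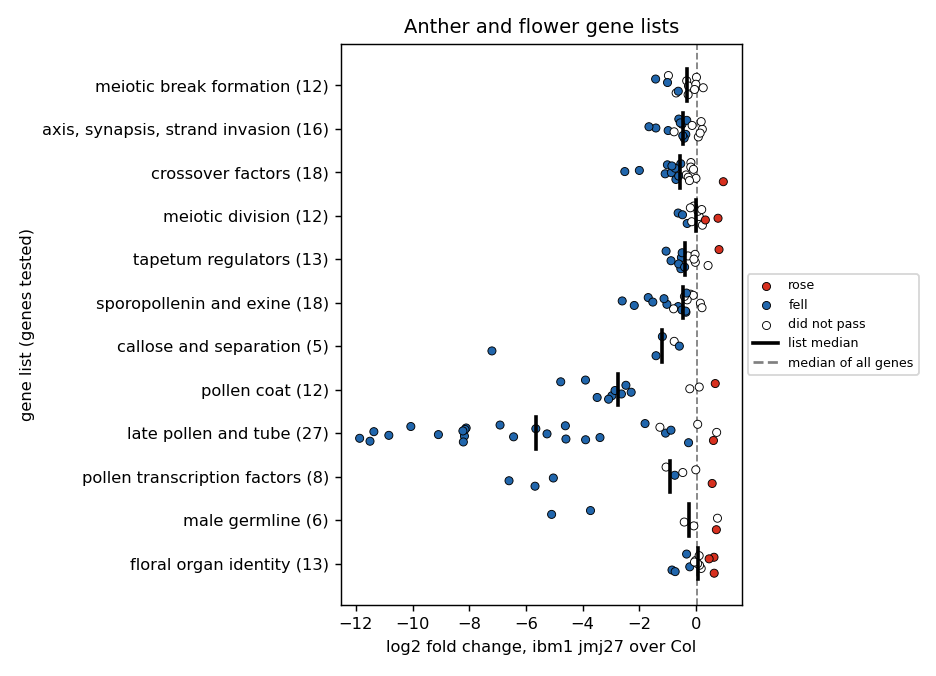
Log2 fold change between ibm1 jmj27 and Col of each gene tested in 12 lists of anther, meiosis and flower genes, with red for genes that rose, blue for genes that fell, white for genes that did not pass, a black bar at the list median and a dashed line at the median of all genes. The medians run from -5.65 for late pollen and -2.75 for pollen coat to values near 0 for meiotic division and floral identity.

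Floral organ genes passed about as often as all genes. Of 14 genes 13 were tested, and 3 rose, 4 fell and 6 did not pass, with a median of 0.05, beside 26.7% higher and 23.8% lower over all genes. Without ibm1 jmj27 replicate 1 there were 5 risen, and without Col replicate 2 there were 2 fallen. PI, the petal and stamen identity gene, rose from 165 and 162 CPM to 241 and 266 (0.63 ± 0.0775 SE, adjusted p = 1.48e-05), while its partner AP3 did not pass (log2 fold change 0.18, adjusted p = 0.0545). SEP1 and SEP2, cofactors of all floral whorls, rose by 0.64 and 0.46. WUS, the stem cell regulator of the floral meristem, fell by 0.74. Of 12 gynoecium and ovule genes 3 rose and 5 fell, with a median of -0.08. The paralogues SHP1 and SHP2, MADS-box genes of the carpel, went opposite ways, SHP1 from 33.3 and 32.1 CPM to 18.98 and 18.8 and SHP2 from 14.5 and 13.4 to 21.0 and 21.6. Of 16 genes for jasmonate and stamen maturation 14 were tested, and 3 rose and 4 fell (2 without ibm1 jmj27 replicate 1), with a median of -0.33, or -0.45 with genes at 0 counts at their bound. JAR1, which activates jasmonate by joining it to isoleucine, fell from 182 and 212 CPM to 49.1 and 76.5. MYB57, a stamen Myb gene that acts late, had 0 counts in Col and 18 in each ibm1 jmj27 library, at least 10.9-fold higher. Its relatives MYB21 and MYB24 each had 0 counts in Col and 1 count in the ibm1 jmj27 libraries together.

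Genes that set and read chromatin silencing fell more often than they rose. Of 19 genes for H3K9 and DNA methylation 10 fell, 2 rose and 7 did not pass, with a median of -0.26. Of all genes tested, 23.8% fell and 26.7% rose. Without Col replicate 2, 1 member of the list rose. ROS1 and DME, glycosylases that remove methylated cytosine, fell from 183 and 187 CPM to 83.0 and 101 (-1.01 ± 0.0884 SE, adjusted p = 5.31e-07) and from 121 and 121 to 65.4 and 87.3 (-0.67 ± 0.104 SE, adjusted p = 0.000145). MET1, which maintains CG methylation, fell from 126 and 126 CPM to 63.7 and 79.9 (-0.82 ± 0.0906 SE, adjusted p = 5.65e-06). Of the H3K9 methyltransferase genes SUVH5 fell by 0.77, and SUVH4 and SUVH6, at -0.06 and 0.16, did not pass. CMT3, which copies H3K9 methylation into CHG methylation, fell by 0.38. SUVH9, a reader of methylated DNA, was against the majority and rose by 0.42.

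RNA-directed DNA methylation genes fell in 8 of 18 cases and rose in 2, beside 23.8% lower and 26.7% higher over all genes. The median was -0.22. The risen member IDN2 lost its call without Col replicate 1 and without Col replicate 2, which left 1. The chromatin remodellers that recruit polymerase IV fell together, CLSY1 from 40.8 and 40.5 CPM to 17.59 and 18.5 (-1.17 ± 0.0809 SE, adjusted p = 4.44e-08), CLSY3 by 0.87 and CLSY4 by 1.13, while CLSY2 did not pass. DCL3, which dices the small RNAs, fell from 117 and 128 CPM to 47.9 and 65.1. The large subunits of the 2 polymerases went apart. NRPE1 of polymerase V fell from 69.2 and 70.4 CPM to 41.7 and 46.0 and NRPD1 of polymerase IV rose from 12.6 and 13.2 to 19.3 and 16.9 (0.49 ± 0.111 SE, adjusted p = 0.00233).

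Genes known as targets of DNA methylation were few and mixed. Of 6, 5 were tested, with 2 risen, 1 fallen and a median of 0.06, beside 26.7% higher and 23.8% lower over all genes. QQS, an Arabidopsis gene known to vary with its methylation, stood at 1.69 and 2.22 CPM in Col and 26.1 and 21.8 in ibm1 jmj27 (3.61 ± 0.201 SE, adjusted p = 4.84e-09). Its means were 2.63 CPM in ibm1 and 1.77 in pds5, and the double mutant was higher than both, with log2 differences of 3.19 (adjusted p = 2.39e-08) and 3.75 (adjusted p = 8.70e-09). SDC, an F-box gene silenced through RNA-directed methylation, rose from 0.562 and 0.469 CPM to 4.19 and 5.23 (3.18 ± 0.284 SE, adjusted p = 6.42e-07). In ibm1 its mean was 4.13 CPM, and the 2 mutants were not separated by the test. SUP was at -0.78 (adjusted p = 0.0483), a call that ended without Col replicate 1, Col replicate 2 or ibm1 jmj27 replicate 1. BNS and APUM9 did not pass, and FWA was under the filter. Of 9 Polycomb genes 7 were tested and 1, EMF2, passed, a call that ended without Col replicate 1, Col replicate 2 or ibm1 jmj27 replicate 1. Of 19 histone genes 3 rose and 2 fell, with a median of 0.01 (5 risen without ibm1 jmj27 replicate 2, 5 fallen without ibm1 jmj27 replicate 1). H1.3, the inducible linker histone, rose from 2.604 and 2.30 CPM to 7.76 and 9.84.

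Clock genes differed widely between the genotypes, in both directions. Of 26 clock genes 10 rose and 13 fell, with a median of -0.34, beside 26.7% higher and 23.8% lower over all genes. Among those that rose were genes known to peak in the morning. LHY, a Myb repressor acting on evening genes, was at 3.01 and 2.86 CPM in Col and 484 and 502 in ibm1 jmj27 (7.39 ± 0.112 SE, adjusted p = 4.43e-14), the largest rise by the rule used above for falls. RVE8, an activating relative, stood at 2.45 and 2.43 and 105 and 93.7 CPM, and LNK2, its coactivator, at 43.7 and 42.7 and 404 and 392. PRR9, the first of the pseudo-response regulators of the day, rose from 67 and 61 counts in Col to 1348 and 994 in ibm1 jmj27. Both ibm1 jmj27 libraries were many times above both Col libraries for each of these genes.

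Among those that fell were genes known to peak in the afternoon or evening, picked here as examples and not counted as a list of their own. PRR5 went from 95.4 and 97.5 CPM in Col to 1.79 and 1.87 in ibm1 jmj27 (-5.72 ± 0.104 SE, adjusted p = 9.83e-14) and PRR3 from 49.9 and 47.1 to 1.98 and 1.40. FKF1, a blue-light receptor of the afternoon, had 1829 and 2167 counts in Col and 10 and 13 in ibm1 jmj27 (-7.56 ± 0.146 SE, adjusted p = 1.36e-13). ELF4, of the evening complex, had 1259 and 1469 counts in Col and 14 in each ibm1 jmj27 library. COR27 and COR28, night regulators that cold and blue light induce, fell by 6.14 and 5.08. Not passing were RVE6, LKP2 and CHE. The labels give no harvest time, so genotype and time of harvest cannot be told apart in these genes or in the daily genes that follow.

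The other mutants lay on both sides of the double mutant for LHY and PRR7, and both lay above it for PRR5 and FKF1. LHY had a mean of 19.6 CPM in ibm1 and 602 in pds5, and PRR5 of 56.7 and 4.67. FKF1 had 26.7 CPM in ibm1 and 1.08 in pds5. Against ibm1, 8 clock genes were higher and 13 lower in the double mutant, beside 22.7% and 22.8% over all genes. Against pds5, 2 were higher and 17 lower, beside 19.1% and 20.7%. PRR7, which peaks between the morning and evening genes, fell from 147 and 147 CPM in Col to 89.1 and 99.0 and had 211 in ibm1 and 70.4 in pds5.

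Light-related regulators were mostly higher, set beside 26.7% of all genes that rose and 23.8% that fell. Of 27 B-box and daily flowering genes 17 rose and 6 fell, with a median of 0.98. BBX25 rose from 6.18 and 6.78 CPM to 89.8 and 81.8 (3.72 ± 0.0897 SE, adjusted p = 9.31e-13) and BBX32 from 0.357 and 0.426 to 14.2 and 14.0. BBX16 had 1 and 5 counts in Col and 244 and 268 in ibm1 jmj27 (ratio 77.8, interval 35.5 to 213). Against the majority BBX22 fell by 1.22 and BBX17 by 1.36, and so did FLC, the flowering repressor, by 0.73. Of 17 light signalling genes 12 rose and 2 fell, with a median of 0.68. HYH, a bZIP factor of light responses, rose from 3.27 and 2.98 CPM to 38.4 and 35.0 (3.56 ± 0.116 SE, adjusted p = 2.14e-11) and ELIP1, an early light-induced protein, from 77.98 and 74.3 to 779 and 792. PIF4 and CRY2 fell, by 1.65 and 0.64. Of 14 flavonoid genes 13 were tested, and 10 rose and 0 fell, with a median of 0.91. F3H rose from 197 and 204 CPM to 573 and 636 and CHI from 81.6 and 82.0 to 202 and 206, and among the anthocyanin genes LDOX rose from 1.38 and 1.24 to 8.93 and 8.96. Against ibm1, 10 flavonoid genes were higher and 0 lower, beside 22.7% and 22.8% over all genes. Against pds5, 4 were higher and 4 lower, beside 19.1% and 20.7%.

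Photosynthesis genes rose almost throughout, set beside 26.7% of all genes that rose and 23.8% that fell. Of 30 nuclear genes 28 rose, 1 fell and 1 did not pass, with a median of 0.96. LHCB2.1, of the light-harvesting antenna, rose from 166 and 157 CPM to 1067 and 1206 (2.81 ± 0.0929 SE, adjusted p = 2.33e-11) and LHCB6 from 457 and 434 to 1228 and 1226. GLK1, a transcription factor of chloroplast genes, rose from 37.8 and 35.6 CPM to 131 and 135 (1.86 ± 0.0711 SE, adjusted p = 1.10e-10). The exception was PORB, a chlorophyll synthesis enzyme, which fell from 504 and 474 CPM to 47.9 and 65.6 (-3.11 ± 0.125 SE, adjusted p = 3.67e-10). RBCS1B, 1 of the near-identical small subunit genes of Rubisco, did not pass. Both ibm1 jmj27 libraries lay above both Col libraries for the antenna genes named, beside 73.3% of all genes tested that did not overlap. Against ibm1, 18 of the 30 were higher and 1 lower, beside 22.7% and 22.8% over all genes. Against pds5, 25 were higher and 1 lower, beside 19.1% and 20.7%. GLK1 had means of 99.3 CPM in ibm1 and 92.3 in pds5.

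Plastid-encoded genes went the same way from very low counts. They made up 0.0155% and 0.0141% of counts in Col and 0.0364% and 0.03% in ibm1 jmj27. Of 88 genes 73 were tested, and 44 rose and 0 fell, beside 26.7% and 23.8% of all genes. The median was 1.39. The risen members were 26 without Col replicate 2, and 2 fell without ibm1 jmj27 replicate 2. Selection of polyadenylated RNA leaves little plastid RNA, and its part in the result was not tested. Of 122 mitochondrial genes 46 were tested, and 3 rose and 2 fell, counts that lay between 1 and 8 when a library was left out.

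Starch and cold genes were mostly lower, set beside 23.8% of all genes that fell and 26.7% that rose. Of 14 starch turnover genes all 14 passed, 11 lower and 3 higher, with a median of -1.39. ISA3, a debranching enzyme of starch breakdown, fell from 245 and 247 CPM to 51.4 and 46.4 (-2.33 ± 0.0777 SE, adjusted p = 2.65e-11), and PHS2, the cytosolic glucan phosphorylase, from 528 and 516 to 96.3 and 111. GBSS1, the starch synthase that makes amylose and a known clock target, rose from 47.6 and 45.8 CPM to 267 and 328 (2.67 ± 0.101 SE, adjusted p = 9.44e-11). Among 12 cold response genes, 2 rose, 7 fell and the median was -2.02, or -1.49 with the gene at 0 counts in 1 genotype at its bound, and 1 rose without Col replicate 1, without Col replicate 2 or without ibm1 jmj27 replicate 2. RD29A fell from 433 and 459 CPM to 28.2 and 31.7 (-3.90 ± 0.130 SE, adjusted p = 4.72e-11), COR15B from 237 and 239.7 to 19.4 and 17.7 (-3.68 ± 0.0858 SE, adjusted p = 7.19e-13) and CBF3, the activator of such genes, from 8.78 and 8.35 to 0.932 and 0.560. In ibm1 the mean of RD29A was 1468 CPM and that of CBF3 28.2 CPM, both above the Col levels. Against ibm1, 11 cold genes were lower in the double mutant and 0 higher, beside 22.8% and 22.7% over all genes.

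**Figure D5:**
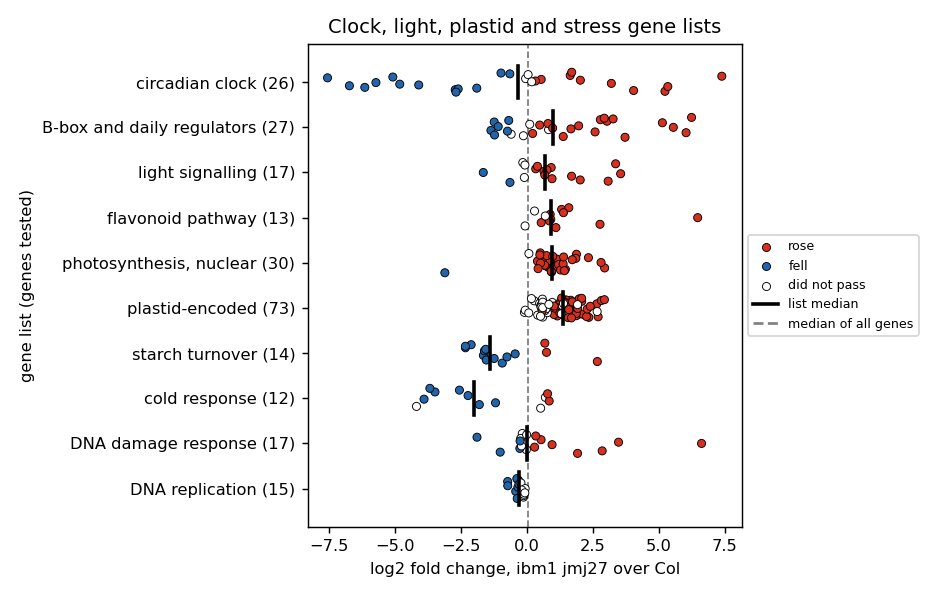
Log2 fold change between ibm1 jmj27 and Col of each gene tested in 10 lists of clock, light, photosynthesis, starch, cold, DNA damage and replication genes, with red for genes that rose, blue for genes that fell, white for genes that did not pass, and a black bar at the list median. Clock genes spread on both sides of 0, from -7.56 for FKF1 to 7.39 for LHY, while photosynthesis genes lie above 0 except PORB and starch genes mostly below it.

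DNA damage genes moved both ways. Of 17 genes 8 rose, 4 fell and 5 did not pass, with a median of -0.01, beside 26.7% higher and 23.8% lower over all genes, and 5 rose without Col replicate 2. ANAC044, a NAC factor that holds the cell cycle after damage, rose from 1.02 and 1.41 CPM to 8.62 and 9.24 (2.86 ± 0.215 SE, adjusted p = 1.13e-07). Its relative ANAC085 had 0 counts in Col and 13 and 12 in ibm1 jmj27, at least 7.60-fold higher. SMR5, an inhibitor of cyclin-dependent kinases, had 3 and 6 counts in Col and 69 and 44 in ibm1 jmj27 (ratio 11.5, interval 5.82 to 25.7). The regulator above them, SOG1, did not pass (22.3 and 22.5 and 21.9 and 22.4 CPM). ATR, a kinase that signals stalled replication, fell from 16.2 and 17.9 CPM to 3.84 and 5.46 (-1.89 ± 0.151 SE, adjusted p = 2.05e-07), and BARD1 from 27.8 and 29.3 to 13.6 and 14.8. In pds5 the means were 8.41 CPM for ANAC044 and 3.47 for SMR5, and neither gene passed between it and the double mutant.

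Replication genes fell slightly. There were 8 fallen and 0 risen of 15, with a median of -0.30, beside 23.8% lower and 26.7% higher over all genes. The 6 subunits of the MCM helicase all fell, by 0.30 to 0.42 on the log2 scale, with MCM5 at 88.0 and 86.9 CPM in Col and 67.5 and 67.0 in ibm1 jmj27 (-0.38 ± 0.0653 SE, adjusted p = 0.00029). PCNA1 and PCNA2, the sliding clamp, did not pass. PCNA1 was close to the threshold, at -0.22 (adjusted p = 0.0517). It passed as fallen with DESeq2 size factors (adjusted p = 0.0298), without the filter (adjusted p = 0.0431) and with a replicate block (adjusted p = 0.0487). Of 17 mitotic genes 7 rose and 3 fell, with a median of 0.11, and 3 rose and 1 fell without Col replicate 1. KNOLLE, the syntaxin of cytokinesis, fell by 0.36, and AUR2, an Aurora kinase gene, rose by 0.54. The fallen members were also 1 without Col replicate 2 and without ibm1 jmj27 replicate 2.

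The largest rises lay both inside and outside the gene lists. By the rule used for the falls, the 12 largest rises were LHY, FSD1, RVE8, CCA1, BBX32, MRD1, BETA-OHASE 2, PRR9, MRU1, UP6, CXE13 and Rap2.6L. Of these LHY, RVE8, CCA1 and PRR9 are on the clock list, BBX32 on the B-box list and FSD1 on the superoxide dismutase list. FSD1, an iron superoxide dismutase, rose from 3.73 and 2.51 CPM to 173 and 215 (5.97 ± 0.262 SE, adjusted p = 1.25e-06), with means of 46.6 CPM in ibm1 and 226 in pds5. MRD1 rose from 1.58 and 1.02 CPM to 46.8 and 43.3 and BETA-OHASE 2, a carotenoid hydroxylase gene, from 0.357 and 0.554 to 10.1 and 11.8. CXE13, a carboxylesterase gene, rose from 0.970 and 0.682 to 12.5 and 13.0, and Rap2.6L, an ethylene response factor gene, from 0.817 and 1.02 to 15.2 and 12.5. The genotypes did not overlap for any of the 12, which the rule required.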

How the data were processed

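Total RNA of closed buds was selected for polyadenylated RNA and sequenced on an Illumina NovaSeq, per the labels' protocols. The authors deposited raw gene counts, 1 table for each mutant together with Col. The submitters' processing notes name HISAT2, Subread, DESeq2 and TAIR10. Software versions, annotation, strand setting and multi-mapping rules: not given in the sources used here, so counts of near-identical, overlapping or antisense genes are uncertain. The Col columns were identical in all tables, and the 8 RNA libraries were fitted together in R 4.3.3 with edgeR 4.0.16, using TMM scaling, filterByExpr and the robust quasi-likelihood test with a mean per genotype and 4 residual degrees of freedom. Benjamini-Hochberg adjustment ran over all 21548 genes tested of 27416. The standard error (SE) divides the size of the log2 fold change by the root of its F statistic, and it can fall below counting error where a genotype holds few counts. Ratios at few counts carry exact 95% Poisson intervals.

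The steps were tested on simulated data. Gene names came from RefSeq (assembly TAIR10.1), in which 26719 of the loci had an entry, or from locus identifiers. Its coordinates are not used. The lists and the naming rule were chosen with earlier results of these data known. The rule takes the KDM3 group; the 12 largest rises and falls among non-overlapping genes that had a symbol and reached 1 in mean log2 CPM; list members by smallest p or against their list's majority; genes at 0 counts in 1 genotype with at least 200 in the other; neighbours of the targeted genes; and the 8 genes farthest apart between the ibm1 jmj27 libraries. Some list members with known roles were named beside these after their values were seen. Alternatives were DESeq2 size factors, no filter, the DESeq2 1.42.0 Wald test, Col and ibm1 jmj27 fitted alone, a replicate block, each library left out, a minimum fold, a stricter threshold and no robust estimation.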

Additional observations from a re-analysis of the deposited data

How the results depend on the processing

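The count of 10881 genes changed against Col stayed within 1.5 times under 11 of the 12 alternatives run, from 7921 with an adjusted p under 0.01 to 12026 without ibm1 jmj27 replicate 2. A minimum absolute log2 fold change of 1 left 3485 genes, 1709 higher and 1776 lower, by its own construction. Leaving out a library gave 7954 to 12026 genes, 4109 to 6333 higher and 3845 to 5693 lower. Against ibm1 the same gave 6451 to 10955 genes, with 2911 to 5375 higher. Against pds5 it gave 5865 to 10070 genes, with 2446 to 4809 higher. The low ends were without ibm1 replicate 2 and without pds5 replicate 2, and the cause was not tested. DESeq2 size factors shifted the median log2 fold change by -0.026.

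Over all genes tested, replicate numbers did not pair the libraries. The correlation of deviations was 0.01 between ibm1 jmj27 and Col, 0.023 with ibm1 and 0.101 with pds5. The summed exine genes, MC9, TED7 and GL22 were nonetheless higher in replicate 2 of both ibm1 jmj27 and pds5. The replicate block gave 11137 genes against Col. Of the 221 genes named in the text or taken by its rules and tested, 200 had the same call under every alternative and 0 were reversed. Of 80 counts of list members that rose or fell, 52 stayed within 1.5 times under every alternative.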

Other observations

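Defence and specialised metabolism genes were mostly higher in ibm1 jmj27 than in Col, set beside 26.7% of all genes that rose and 23.8% that fell. Of 15 salicylic acid genes 13 were tested, and 8 rose and 2 fell, with a median of 0.64 (1 fell without Col replicate 1 or without ibm1 jmj27 replicate 1). PR2, a glucanase, rose from 11.1 and 12.3 CPM to 49.4 and 48.1 (2.05 ± 0.0895 SE, adjusted p = 3.78e-10) and PR5 from 6.64 and 4.22 to 27.9 and 24.8. Of 17 camalexin and glucosinolate genes 16 were tested, and 10 rose and 0 fell, with a median of 1.26, or 1.08 with the gene at 0 counts in 1 genotype at its bound. CYP79B2, which makes the precursor of indole glucosinolates, rose from 5.77 and 5.12 CPM to 25.4 and 24.5, and CYP83A1, of the aliphatic branch, from 8.12 and 6.48 to 32.9 and 34.9. Abscisic acid response genes rose in 9 of 16 tested of 18 listed (5 with the 4 libraries fitted alone) and fell in 1, LTI30, from 30.4 and 33.4 CPM to 1.44 and 0.187. AFP1, a repressor of abscisic acid signalling, rose from 2.196 and 2.43 CPM to 13.0 and 12.6, and its means were 35.3 in ibm1 and 68.5 in pds5. Set against ibm1, 13 of these genes were lower in the double mutant and 1 higher, beside 22.8% and 22.7% over all genes.

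Iron, copper and heat genes were mixed, beside 26.7% of all genes higher and 23.8% lower. Of 19 iron genes 6 rose and 4 fell (2 without Col replicate 2), with a median of 0.95, or 0.60 with the gene at 0 counts in 1 genotype at its bound. The uptake peptide gene IMA1 had 0 and 1 counts in Col and 36 and 19 in ibm1 jmj27 (ratio 50.2, interval 8.64 to 2017), against means of 8.82 CPM in ibm1 and 32.8 in pds5. IMA1 and IMA2 are near copies. The storage gene FER3 fell from 120.2 and 113 CPM to 73.8 and 66.1. Against ibm1, 12 iron genes were lower and 3 higher, beside 22.8% and 22.7% over all genes. Of 8 superoxide dismutase and copper genes 2 rose, FSD1 and COPT2, and 1 fell (0 without Col replicate 2, 2 without ibm1 jmj27 replicate 1). Of 9 heat genes 8 were tested, and 4 rose and 3 fell, with a median of 0.84. HSP17.6C had 0 and 1 counts in Col and 31 and 25 in ibm1 jmj27 (ratio 51.1, interval 8.80 to 2053), while HSP70 fell from 12.0 and 12.5 CPM to 4.77 and 6.39.

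Some changed genes lay in rows along the chromosomes. Runs of at least 4 neighbouring tested genes that all fell by 1 or more on the log2 scale numbered 10, and runs that rose numbered 5. The 2 longest, of 10 genes each, were AT1G23570 to AT1G23690, with falls of 1.295 to 5.05, and AT5G07475 to AT5G07570, with falls of 1.03 to 8.83, which holds the GRP genes. The 7 genes of AT3G21960 to AT3G22050 fell by 4.68 to 9.78. Among the runs that rose were CRK21 to CRK24, genes of cysteine-rich receptor kinases. Neighbours in a row can be copies of each other, and their counts may share reads. Of the 20 genes next to JMJ27, 10 on each side, 10 passed, 5 higher and 5 lower, near the 50.5% over all genes. Of 19 tested next to IBM1, 12 passed, 4 higher and 8 lower, beside 26.7% and 23.8% over all genes, among them COL9, a CONSTANS-like gene, from 45.04 and 49.1 CPM to 6.09 and 7.42.

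Between the ibm1 jmj27 libraries, the 8 genes farthest apart among those close in Col were MC9, TED7, XTH3, STP2, PAP25, LTI30, PAP6 and GL22. MC9, a metacaspase gene of xylem, stood at 0.388 and 4.99 CPM, and STP2, a sugar transporter of early pollen, at 0.582 and 4.06. Of the 8, LTI30 was higher in replicate 1 and the others in replicate 2.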
